A study of Mus musculus with 3 samples.

Results

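The cells described here are collagen-producing skin cells that carried transcripts of Thbs4, Cilp and Myoc, called fascia-like Thbs4 and Cilp fibroblasts. A cell was a member if it had at least 300 genes, at most 20% mitochondrial UMIs (unique molecular identifiers, the counted transcripts), at least 20 UMIs of Col1a1, Col1a2 and Col3a1 per 10000, no UMI of Ptprc or Rgs5, and at least 2 of Thbs4, Cilp and Myoc detected with 3 or more UMIs in sum. The members were thus chosen by measured values of these genes, and no test of those values is made. By this rule 1067 of 24858 cells that passed the gene and mitochondrial filters were members, among 9224 cells that met the collagen, Ptprc and Rgs5 conditions (the gated cells). The study sequenced 3' transcripts of single cells from dorsal skin of C57BL/6 mice at 7 weeks of age, in 3 droplet libraries with 1 library per group. Mice of the IMQ+celastrol group received celastrol, a plant triterpenoid, along with imiquimod. Mice of the IMQ group received imiquimod, which activates a Toll-like receptor and is used to induce psoriasis-like inflammation. Mice of the normal group received glycerin as the control. The labels call both imiquimod groups imiquimod-induced psoriasis. The number of mice per library and the doses are not given in the sources used here, and skin given celastrol alone was not analysed here. Without replicates no test was possible and no p-value is given. What comes from the treatment and what from the library cannot be told apart, and the 95% intervals below cover counting error only.

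Skin fascia is the loose connective tissue beneath the dermis and its fat, and its fibroblasts are known for depositing matrix in wounds. Thbs4 encodes thrombospondin-4, a matricellular protein of tendon and muscle connective tissue. Cilp encodes cartilage intermediate layer protein, a matrix glycoprotein known to bind TGF-beta, and Myoc encodes the secreted glycoprotein myocilin, best known from the eye. The label fascia-like rests on transcripts alone, since tissue position was not recorded.

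Members were a larger share of the gated cells in both imiquimod-treated libraries than in the normal library. They numbered 450 of 2544 gated cells in the IMQ+celastrol library (17.7%, exact binomial interval 16.2 to 19.2), 423 of 3279 in the IMQ library (12.9%, 11.8 to 14.1) and 194 of 3401 in the normal library (5.70%, 4.95 to 6.54). The share was thus 2.26-fold higher in the IMQ library than in the normal library (1.90 to 2.69) and 1.37-fold higher in the IMQ+celastrol library than in the IMQ library (1.20 to 1.57). Members were 7.01% of the filtered IMQ+celastrol cells, 5.28% of the filtered IMQ cells and 1.86% of the filtered normal cells. The median member held 9764 UMIs and 3162 genes in the IMQ+celastrol, 10722 UMIs and 3147 genes in the IMQ and 4869 UMIs and 1910 genes in the normal library. A deeper cell meets the rule more easily. Filtered cells were therefore thinned to 3000 UMIs, with shallower ones left out, and the gate and the rule were applied anew. A cell that lost its Ptprc or Rgs5 UMIs by thinning could thus enter. Of 2472 IMQ+celastrol, 3203 IMQ and 2495 normal cells gated in this way, the shares of members were 13.8% in the IMQ+celastrol, 10.7% in the IMQ and 5.57% in the normal library, which kept their order. No cell barcode was shared between the members of different libraries.

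**Figure D1:**
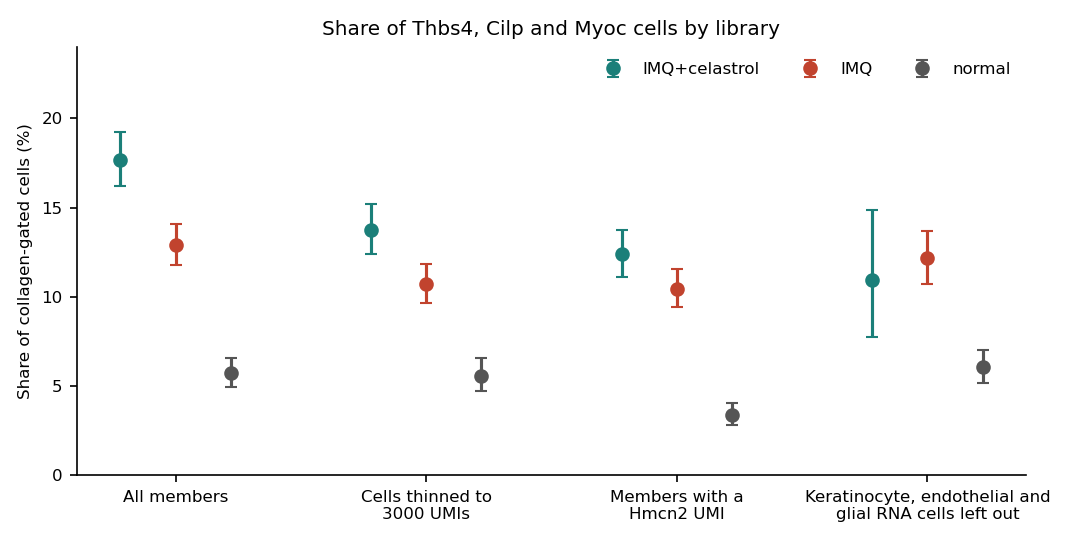
Share of collagen-gated cells that were members, in percent, by library and by choice of cells; points are shares and bars are exact 95% binomial intervals of counting error. In the first 3 choices the IMQ+celastrol point lies highest and the normal point lowest, while with cells holding keratinocyte, endothelial or glial RNA left out the IMQ+celastrol share (10.9%) lies below the IMQ share (12.1%).

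The order of the IMQ+celastrol and IMQ libraries depended on how cells with RNA of other cell types were treated. At least 2 UMIs in sum of endothelial, glial and keratinocyte marker genes, Pecam1, Cdh5, Sox10, Krt5, Krt14 and Krt10 among them, were found in 415 of 450 IMQ+celastrol members (92.2%), 184 of 423 IMQ members (43.5%) and 35 of 194 normal members (18.0%). The other gated cells had the same order, with 86.4% in the IMQ+celastrol, 39.5% in the IMQ and 23.1% in the normal library. With all such cells left out, 35 of 320 gated IMQ+celastrol cells were members (10.9%, 7.74 to 14.9), 239 of 1968 gated IMQ cells (12.1%, 10.7 to 13.7) and 159 of 2626 gated normal cells (6.05%, 5.17 to 7.04), so the ratio of IMQ+celastrol to IMQ was 0.901 in place of 1.37. The summed level of 9 keratinocyte genes in members was 3316 counts per 1000000 UMIs (CPM) in the IMQ+celastrol, 1979 CPM in the IMQ and 819 CPM in the normal library, against 44273, 41929 and 31374 CPM in keratin-rich cells of the IMQ+celastrol, IMQ and normal libraries, which are ungated cells with at least 1% of their UMIs from Krt14, Krt5 and Krt10. None of these 9 genes was without a UMI in IMQ+celastrol or IMQ members, and 1 was in normal members. The part of this RNA in the shares was not tested.

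The rule genes show how the members were picked, and their values are a description. Thbs4 (chr13:92751586-92794818, GRCm38) stood at 2170.2 CPM in IMQ+celastrol members, 2363 CPM in IMQ members and 1003 CPM in normal members. Cilp (chr9:65265180-65280614) stood at 3063 CPM in IMQ+celastrol members, 2479 CPM in IMQ members and 1728 CPM in normal members, and Myoc (chr1:162639150-162649694) at 904 CPM in IMQ+celastrol members, 485 CPM in IMQ members and 914 CPM in normal members. All 3 rule genes were detected in 172 IMQ+celastrol members (38.2%), 149 IMQ members (35.2%) and 60 normal members (30.9%), while 165 IMQ+celastrol, 143 IMQ and 65 normal members carried Cilp and Myoc without Thbs4. The median member held 40.5 rule-gene UMIs in the IMQ+celastrol, 37 in the IMQ and 15 in the normal library. Few cells lay at the edge, since 10 IMQ+celastrol, 8 IMQ and 9 normal members held exactly 3 such UMIs, and 11 IMQ+celastrol, 5 IMQ and 18 normal gated cells held 2 UMIs of 2 rule genes and stayed outside. Many more gated cells, 908 in the IMQ+celastrol, 1014 in the IMQ and 904 in the normal library, held 3 or more UMIs of a single rule gene and stayed outside.

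Hmcn2 and Gpx3, the markers of these cells that the rule did not use, were both higher in members than in the other gated cells of every library, although by very different factors. Hmcn2 (chr2:31314255-31460738), which encodes hemicentin-2, a large extracellular matrix protein, stood at 576 CPM in IMQ+celastrol members, 542 CPM in IMQ members and 743 CPM in normal members, against 28.3, 28.8 and 12.4 CPM in the other gated cells of the IMQ+celastrol, IMQ and normal libraries. Its ratio of members to other gated cells was 20.4-fold (18.7 to 22.3) in the IMQ+celastrol, 18.9-fold (17.5 to 20.4) in the IMQ and 59.97-fold (51.5 to 70.04) in the normal library. A Hmcn2 UMI was also found in 208 of 2094 other gated IMQ+celastrol cells (9.93%), 350 of 2856 IMQ cells (12.3%) and 92 of 3207 normal cells (2.87%). In the IMQ library more gated cells with a Hmcn2 UMI thus lay outside the members than among them, where 342 were found. Gpx3 (chr11:54902854-54910387), which encodes the secreted glutathione peroxidase, stood at 4789 CPM in IMQ+celastrol members, 7341 CPM in IMQ members and 2353 CPM in normal members, against 2320.2, 3476 and 207 CPM in the other gated cells of the IMQ+celastrol, IMQ and normal libraries. It was 2.06-fold (2.03 to 2.10) higher in members in the IMQ+celastrol, 2.11-fold (2.09 to 2.14) in the IMQ and 11.4-fold (10.8 to 11.98) in the normal library. The low level of Gpx3 in other gated cells was seen in the normal library only, so Gpx3 set the members apart more weakly in both imiquimod-treated libraries. Of keratin-rich cells, which should lack these genes, 15 of 1814 (0.827%), 12 of 1303 (0.921%) and 1 of 1880 (0.0532%) held rule-gene UMIs that would meet the rule in the IMQ+celastrol, IMQ and normal libraries.

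Outside the rule genes, 61 of 5740 measured genes (1.06%) were at least 2-fold higher in members than in the other gated cells in all 3 libraries, and 49 (0.854%) at least 2-fold lower. A gene counted as measured with at least 30 UMIs over both groups and 20 CPM in one of them. These ratios come from the cells that the rule picked and are a description. Beside Hmcn2 the leading genes included Fbln7, for the matrix protein fibulin-7, which stood at 112 CPM in IMQ+celastrol members, 56.9 CPM in IMQ members and 98.2 CPM in normal members and at 7.10, 2 and 7.26 CPM in the other gated cells of the IMQ+celastrol, IMQ and normal libraries. Meox1, for a homeobox transcription factor, stood at 96.8 CPM in IMQ+celastrol members, 68.03 CPM in IMQ members and 51.9 CPM in normal members and at 5.53, 5.28 and 2.25 CPM in the other gated cells of the IMQ+celastrol, IMQ and normal libraries. Col8a1, for the short-chain collagen VIII, was 10.2-fold (9.10 to 11.3) higher in members of the IMQ+celastrol library, 12.9-fold (11.8 to 14.2) in the IMQ library and 11.7-fold (9.31 to 14.6) in the normal library. Mgp, for matrix Gla protein, an inhibitor of calcification, followed with 4.34-fold (4.198 to 4.49) in the IMQ+celastrol, 8.71-fold (8.51 to 8.92) in the IMQ and 4.87-fold (4.46 to 5.30) in the normal library. The fibril-associated collagen gene Col14a1, the WNT inhibitor gene Sfrp1, the convertase gene Pcsk6, the calcium-binding matrix gene Smoc2, the lipid transporter gene Abca8a, Angptl1, C1qtnf3, Islr, Cygb and Fap completed the 15 leading genes. Among genes lower in members, Coch, for the matrix protein cochlin, stood at 67.3 CPM in IMQ+celastrol members, 105 CPM in IMQ members and 33.4 CPM in normal members, against 675, 923 and 312 CPM in the other gated cells of the IMQ+celastrol, IMQ and normal libraries.

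**Figure D2:**
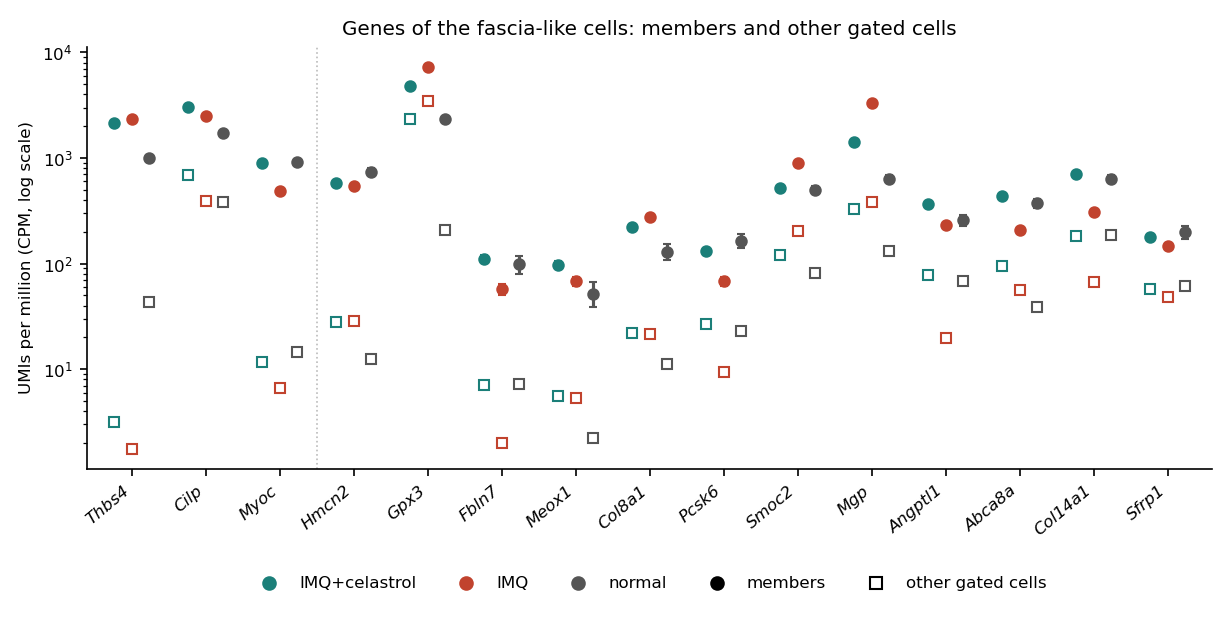
Levels of the rule genes (left of the dotted line), Hmcn2, Gpx3 and leading member genes in CPM on a log scale; filled circles are members with 95% Poisson intervals, open squares are the other gated cells, and colours are libraries. Hmcn2, Fbln7, Meox1 and Col8a1 lie higher in members in all 3 libraries, while the Gpx3 squares of both imiquimod-treated libraries (2320.2 and 3476 CPM) reach close to the member levels.

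Of 16 listed tendon and fascia matrix genes, 9 stood at 10 CPM or more in IMQ+celastrol members, 7 in IMQ members and 9 in normal members. In sum they stood at 2908 CPM in IMQ+celastrol, 2949 CPM in IMQ and 2322 CPM in normal members. The other gated cells of the IMQ+celastrol, IMQ and normal libraries held 1839, 1938 and 1324 CPM. A list of 9 reticular fibroblast genes, Mgp among them, summed to 2724, 4097 and 2082 CPM in IMQ+celastrol, IMQ and normal members. In the other gated cells of the same libraries it summed to 1208, 949 and 1242 CPM. Mgp alone made up most of the sum in IMQ members. Of 8 measured genes of this list, 2 were at least 2-fold higher in IMQ than in normal members and 5 at least 2-fold lower (median log2 ratio -1.16). Comp, Chad and Tnxb of the tendon and fascia list were picked after their values were seen. Comp, for cartilage oligomeric matrix protein, had 0 UMIs in IMQ+celastrol members, 1 in IMQ members and 0 in normal members, and Chad, for the cartilage protein chondroadherin, had 1 in IMQ+celastrol members, 0 in IMQ members and 2 in normal members. Tnxb, for tenascin-X, a glycoprotein of loose connective tissue, stood at 1473 CPM in IMQ+celastrol members, 1112 CPM in IMQ members and 1058 CPM in normal members. The adventitial fibroblast gene Pi16 was also present, and 310 of 450 IMQ+celastrol members (68.9%), 347 of 423 IMQ members (82.0%) and 104 of 194 normal members (53.6%) held at least 3 Pi16 UMIs, against 50.3%, 52.8% and 34.4% of all gated cells of the IMQ+celastrol, IMQ and normal libraries. At least 2 of the papillary dermis genes Crabp1, Fmod, Dkk2 and Aspn with 3 UMIs in sum were found in 21.3% of IMQ+celastrol members, 12.5% of IMQ members and 23.2% of normal members. Of all gated cells, 30.4% in the IMQ+celastrol, 19.3% in the IMQ and 25.5% in the normal library met this condition. Tnc together with Mmp3, with at least 3 UMIs in sum, was found in 13.3% of IMQ+celastrol members, 24.6% of IMQ members and 3.61% of normal members. For all gated cells these shares were 18.9%, 32.5% and 3.03%. The members thus overlap with other groups of fibroblasts that could be drawn from the same cells. Only for Pi16 was the member share above the gated share in every library.

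The members were also a mixture, and parts of its make-up differed between libraries. A Hmcn2 UMI was found in 315 of 450 IMQ+celastrol members (70.0%, 65.5 to 74.2), 342 of 423 IMQ members (80.9%, 76.8 to 84.5) and 115 of 194 normal members (59.3%, 52.0 to 66.3), and after thinning to 3000 UMIs in 68.5% of IMQ+celastrol, 76.4% of IMQ and 65.5% of normal members. The ratio of the thinned shares was 1.167 (0.916 to 1.498) in IMQ over normal. It was 0.897 (0.749 to 1.074) in IMQ+celastrol over IMQ and 1.047 (0.818 to 1.349) in IMQ+celastrol over normal. Each of these intervals includes 1, so the thinned Hmcn2 shares showed no difference beyond counting error. In keratin-rich cells the shares were 5.68% in the IMQ+celastrol, 6.91% in the IMQ and 0.585% in the normal library, at median depths of 28268, 38435 and 8679.5 UMIs. A UMI of Col11a1, Igfbp2 or Ednrb, genes chosen after seeing the data, was found in 34 IMQ+celastrol members (7.56%, 5.29 to 10.4), 9 IMQ members (2.13%, 0.977 to 4.0004) and 48 normal members (24.7%, 18.8 to 31.4). Of these, 20 of the 34 IMQ+celastrol, 4 of the 9 IMQ and 43 of the 48 normal members lacked Hmcn2. Of all gated cells, 2058 of 2544 IMQ+celastrol, 2915 of 3279 IMQ and 1992 of 3401 normal cells held no UMI of Col11a1, Igfbp2 or Ednrb. The gated cells thus had the same order of libraries, and in each library such a UMI was rarer in members than in all gated cells. Among gated normal cells with Thbs4 and no other rule gene, 180 of 201 held a UMI of these genes. The summed level of 8 dermal papilla and sheath genes was 70.4 CPM in IMQ+celastrol members, 18.1 CPM in IMQ members and 568 CPM in normal members, and 19.4, 12.3 and 94.3 CPM among the IMQ+celastrol, IMQ and normal members with a Hmcn2 UMI. Ratios below are given for the Hmcn2-bearing members too where that choice changes a direction or the side of 2-fold.

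The first comparison, IMQ against normal, asks how these cells differ in the imiquimod model. Of 6407 measured genes outside the rule, 288 (4.5%) were at least 2-fold higher in IMQ members and 330 (5.15%) at least 2-fold lower, with a median log2 ratio of -0.06. Among members with a Hmcn2 UMI, 332 of 6395 (5.19%) were higher and 356 (5.57%) lower. The higher genes included those of the acute-phase response and of complement, and the lower ones included matrix, WNT and BMP response genes.

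All 7 measured acute-phase genes of 14 listed were higher in IMQ members, with a median log2 ratio of 5.28 (4.87 among Hmcn2-bearing members). Acute-phase proteins are secreted in inflammation, chiefly by liver, and fibroblasts are a known source outside it. Saa3 (chr7), for serum amyloid A3, stood at 11735 (11643 to 11828) CPM in IMQ members and had 0 UMIs in the 194 normal members, which allows up to 2.78 CPM and up to 1.55% of the cells, so it was at least 4222-fold higher in IMQ members. A Saa3 UMI was found in 77.1% of IMQ members and none of the normal members, and in 69.9% of IMQ members after thinning. Saa3 reached 19611 CPM in the other gated IMQ cells and 189 CPM in keratin-rich IMQ cells, against 0.922 and 0.0558 CPM in the same cells of the normal library. Its level in IMQ members was thus below that in the other gated IMQ cells. Lcn2 (chr2:32384637-32387739), for the iron-siderophore binder lipocalin-2, stood at 1896 CPM in IMQ members against 1.85 CPM in normal members, where it rested on 2 UMIs, and was 1023-fold higher (283 to 8452).

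The promoter sequences of Saa3 and Lcn2 are shown because both genes were far higher in IMQ members than in normal members and lower again in IMQ+celastrol members. Each runs from 250 bases before to 50 bases after the gene start that RefSeq lists, on GRCm38.p6 and the minus strand, 5′ to 3′. The Saa3 window (chr7:46715627-46715926) lies inside the annotated gene span, and that of Lcn2 is chr2:32387690-32387989. Capitals mark the letters TTGCNNAA, a core pattern of C/EBP factors, searched on both strands.
Saa3: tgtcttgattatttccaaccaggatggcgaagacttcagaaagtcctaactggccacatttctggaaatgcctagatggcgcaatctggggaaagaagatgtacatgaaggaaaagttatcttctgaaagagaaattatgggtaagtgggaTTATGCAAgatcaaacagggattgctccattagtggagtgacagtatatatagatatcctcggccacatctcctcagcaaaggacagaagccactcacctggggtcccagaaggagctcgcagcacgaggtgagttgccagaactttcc
Lcn2: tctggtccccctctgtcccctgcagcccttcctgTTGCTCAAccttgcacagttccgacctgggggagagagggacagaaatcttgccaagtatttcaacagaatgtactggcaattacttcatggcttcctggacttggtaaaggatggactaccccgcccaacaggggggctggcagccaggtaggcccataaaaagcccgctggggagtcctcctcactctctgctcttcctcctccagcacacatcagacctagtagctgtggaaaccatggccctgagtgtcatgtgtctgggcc
In Saa3 the pattern reads on the opposite strand. The match begins 99 bases before the listed start in Saa3 and 216 bases before it in Lcn2. This pattern was found in 3547 of 32851 promoter windows (10.8%). The NF-kB type letters GGGNNTTCC (5.82% of windows) and the AP-1 type letters TGANTCA (7.81%) were in neither window, and the window of Serpina3n held none of the 3 patterns. For Cp, the window chr3:19956804-19957103 held an AP-1 type match 177 bases before its listed start. Another Cp window, chr3:19956999-19957298, held a C/EBP type match 70 bases before its start. Such matches describe the letters and say nothing of binding.

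Serpina3n, for a secreted protease inhibitor, stood at 1785 CPM in IMQ members against 125 CPM in normal members and was 14.3-fold higher (12.04 to 17.04). Cp, for the copper-carrying ferroxidase ceruloplasmin, stood at 949 CPM in IMQ members against 93.6 CPM in normal members and was 10.1-fold higher (8.33 to 12.5). Lbp, for lipopolysaccharide-binding protein, stood at 711 CPM in IMQ members against 188 CPM in normal members and was 3.78-fold higher (3.28 to 4.38). These 3 genes were thus present in normal members already, unlike Saa3. Saa1, whose near-identical copy Saa2 makes its count uncertain, stood at 295 CPM in IMQ members and had 0 UMIs in normal members. Cp was higher in members than in the other gated cells of each library, at 949 against 387 CPM in the IMQ library and 93.6 against 22.5 CPM in the normal library. Per cell, the median member held 12.4 Serpina3n and 8.64 Cp UMIs per 10000 in the IMQ library and 0 of each in the normal library.

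Of 12 measured complement genes, 7 were higher in IMQ members and 1 was lower (median log2 ratio 1.21, or 0.59 with 4 higher and 2 lower among Hmcn2-bearing members). C3 (chr17:57203967-57228136), the central component of the cascade, stood at 4257 CPM in IMQ members against 491 CPM in normal members and was 8.67-fold higher (7.95 to 9.46). In the median cell it held 34.6 UMIs per 10000 in IMQ members and 0.363 in normal members. Cfb, for factor B of the alternative pathway, was 12.8-fold higher (6.46 to 29.9) and C4b, of the classical pathway, 3.89-fold higher (3.33 to 4.58). The first-step protease genes C1ra and C1s1 were 3.01-fold higher (2.63 to 3.45) and 2.24-fold higher (2.004 to 2.52), although C1s1 was below 2-fold among Hmcn2-bearing members, with a log2 ratio of 0.60, and in thinned cells. Cd55, for a brake on complement at the cell surface, was the lower one, 2.08-fold lower (1.77 to 2.45).

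**Figure D3:**
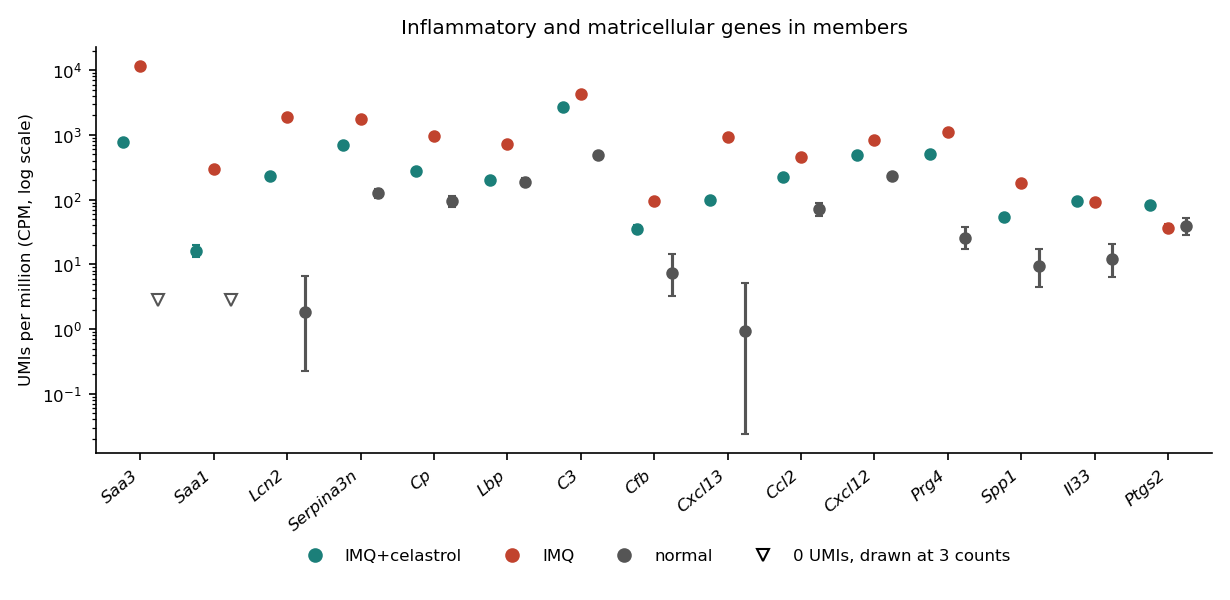
Levels of inflammatory and matricellular genes in members, in CPM on a log scale, by library; points carry 95% Poisson intervals and open triangles stand for 0 UMIs, drawn at 3 counts. Saa3 is highest in IMQ members at 11735 CPM, lower in IMQ+celastrol members at 777 CPM and without a UMI in normal members.

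Chemokine genes were higher for 9 of 14 measured in IMQ members and lower for 2, with a median log2 ratio of 1.48, and for 6 and 1 of 14 among Hmcn2-bearing members. The monocyte attractant genes Ccl2 and Ccl7 were 6.51-fold higher (5.18 to 8.29) and 4.30-fold higher (3.63 to 5.12). Cxcl12, the ligand of CXCR4, stood at 822 CPM in IMQ members against 229 CPM in normal members and was 3.59-fold higher (3.16 to 4.10), and Cxcl14 was 3.05-fold higher (2.75 to 3.39). Cxcl13, which attracts B cells, stood at 943 CPM in IMQ members against 0.927 CPM in normal members, but 1 cell held 28.9% of its UMIs in the IMQ library, and its normal value rests on 1 UMI. Ccl21a, with near-identical copies in the genome, stood at 214 CPM in IMQ members against 35.2 CPM in normal members, with 71.1% of the IMQ UMIs and all normal UMIs in 1 cell each. Without the top cell of each library it stood at 62.5 CPM in IMQ members and 0 CPM in normal members, so this direction was kept. The direction of Ccl21a turned round in thinned cells and with cells holding RNA of other cell types left out. Ccl27a was 5.20-fold lower (3.45 to 7.85).

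Cytokines and receptors were higher for 5 of 14 measured genes in IMQ members and lower for 1, at a median log2 ratio of 0.92, and for 2 and none of 14 among Hmcn2-bearing members. The alarmin gene Il33 stood at 92.4 CPM in IMQ members against 12.05 CPM in normal members and was 7.67-fold higher (4.44 to 14.5). The receptor genes Il1r1, Osmr and Il4ra were 2.27-fold higher (1.79 to 2.91), 2.33-fold higher (1.77 to 3.10) and 2.32-fold higher (1.78 to 3.07), and each was below 2-fold among Hmcn2-bearing members, at log2 ratios of 0.84, 0.71 and 0.56. Of 15 NF-kB targets and regulators 2 were higher, Sod2, for mitochondrial superoxide dismutase, which was 3.63-fold higher (2.88 to 4.63), and Bcl3, which was 2.22-fold higher (1.33 to 3.97). Bcl3 was below 2-fold among Hmcn2-bearing members, with a log2 ratio of 0.78, and 2 of 14 genes of this list were higher and 1 lower there. None of 19 immediate early genes and none of 10 MHC class I genes passed 2-fold in either direction. Of all measured genes only 4.5% were higher and 5.15% lower, so lists this short would hold few such genes. Of 16 interferon response genes 3 were higher and 1 was lower, while among Hmcn2-bearing members 2 were higher and 3 lower, so the balance turned with that choice. Ifitm1 was 6.56-fold higher (4.97 to 8.85), while Isg15 was 2.11-fold lower (1.66 to 2.66) and below 2-fold without its top cell (log2 ratio -0.85).

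Matrix genes split by kind in IMQ members. Of 15 matrix proteases and inhibitors 6 were higher and none lower (median log2 ratio 0.88), against 9 higher and 1 lower of 17 among Hmcn2-bearing members, and the higher ones included Timp1, Mmp3 and Adamts15. Timp1, for a metalloproteinase inhibitor, stood at 516 CPM in IMQ members against 122 CPM in normal members and was 4.22-fold higher (3.54 to 5.06). Adamts15, for a proteoglycan-cleaving protease, was 4.41-fold higher (2.95 to 6.87). Mmp3, for the protease stromelysin-1, was 2.98-fold higher (2.54 to 3.52), or just below 2-fold among Hmcn2-bearing members (log2 ratio 0.96). Prg4 (chr1:150449412-150466221), for the lubricating proteoglycan lubricin, stood at 1096 CPM in IMQ members against 25.9 CPM in normal members and was 42.2-fold higher (29.2 to 63.6). It was higher in members than in the other gated cells too, at 1096 CPM in members against 685 CPM in the other gated cells of the IMQ library. The matricellular genes Spp1 and Tnc, for osteopontin and tenascin-C, were also higher. Spp1 stood at 179 CPM in IMQ members against 9.27 CPM in normal members and was 19.3-fold higher (10.4 to 40.3), with 90% of its 10 normal UMIs in 1 cell. Tnc had a log2 ratio of 1.87. In thinned cells Tnc and Mmp3 were below 2-fold, with log2 ratios of 0.64 and 0.67. Mgp stood at 3341 CPM in IMQ members against 638 CPM in normal members and was 5.24-fold higher (4.86 to 5.66), and Lox, for the collagen and elastin crosslinking enzyme lysyl oxidase, was 2.12-fold higher (1.90 to 2.36), or just below 2-fold among Hmcn2-bearing members (log2 ratio 0.97).

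Structural matrix genes were mostly level or lower in IMQ members. Of 15 measured collagen genes 4 were lower and 1, Col8a1, was higher, with a median log2 ratio of -0.59. Col8a1 was 2.15-fold higher (1.80 to 2.57), or below 2-fold among Hmcn2-bearing members (log2 ratio 0.89). Col14a1 stood at 306 CPM in IMQ members against 635 CPM in normal members and was 2.07-fold lower (1.89 to 2.27), Col15a1 was 3.01-fold lower (2.64 to 3.42) and Col5a3 2.08-fold lower (1.80 to 2.38). With called doublets left out the log2 ratio of Col14a1 was -0.98, just short of 2-fold. Of 16 elastic fibre and microfibril genes 5 were lower and none higher (3 lower and 1 higher among Hmcn2-bearing members): Mfap4 stood at 842 CPM in IMQ members against 2128 CPM in normal members, and Fbln5, for fibulin-5, was 4.23-fold lower (3.44 to 5.20). Mfap4 and Fbn2 were below 2-fold among Hmcn2-bearing members, with log2 ratios of -0.65 and -0.81. Fn1, for fibronectin, stood at 204 CPM in IMQ members against 877 CPM in normal members and was 4.29-fold lower (3.92 to 4.68). Of 8 tendon and fascia matrix genes 4 were lower and 1, Prg4, was higher: Tnmd, for the tendon membrane protein tenomodulin, was 12.5-fold lower (10.1 to 15.5) and Fmod, for fibromodulin, 6.25-fold lower (4.26 to 9.20), with 47.7% of the normal UMIs of Fmod in 1 cell.

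Signalling genes of the WNT and BMP pathways that passed 2-fold were lower in IMQ members. Of 11 measured WNT genes 5 were lower and none higher (median log2 ratio -0.78), and 5 of 9 lower and 1 higher among Hmcn2-bearing members (-1.02), with Sfrp2, for a secreted WNT modulator, 3.73-fold lower (3.04 to 4.56), and the ligand gene Wnt5a 4.11-fold lower (3.03 to 5.56). Of 21 TGF-beta and BMP genes 6 were lower and none higher (-0.70), and 9 lower and 2 higher among Hmcn2-bearing members (-0.91). These included Id1, Id2 and Id3, known targets of BMP signalling, which were 2.06-fold lower (1.53 to 2.75), 2.77-fold lower (2.31 to 3.31) and 2.29-fold lower (2.14 to 2.45). Tgfbi was 2.58-fold lower (2.32 to 2.87). Without its top cell Id1 was below 2-fold (log2 ratio -0.93). In the other gated cells the log2 ratios of Id2 and Id3 were -0.49 and -0.89, against -1.47 and -1.20 in members, and the difference was not tested. Of 17 growth factor genes 3 were higher and 5 lower: Gas6, for a ligand of TAM receptors, was 3.10-fold higher (2.87 to 3.35) and Pdgfra 2.63-fold higher (2.39 to 2.90), while Fgf18 was 4.46-fold lower (2.63 to 7.54). Igfbp3, for an IGF carrier, stood at 2124 CPM in IMQ members against 588 CPM in normal members and was 3.61-fold higher (3.33 to 3.92).

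Some of the lowest ratios changed when only members with a Hmcn2 UMI were used, and the cause was not tested. In the other gated cells, 6 of 6 measured dermal papilla and sheath genes were at least 2-fold lower in the IMQ than in the normal library (median log2 ratio -4.15). Igfbp2 (chr1:72824480-72852474) stood at 2.65 CPM in IMQ members against 665 CPM in normal members and was 251-fold lower (149 to 462), but stood at 3.02 CPM in IMQ members with a Hmcn2 UMI and 8.57 CPM in such normal members. Col11a1 stood at 1.32 CPM in IMQ members against 300.2 CPM in normal members and Ednrb at 1.70 CPM in IMQ members against 219.6 CPM in normal members, and both stayed lower among Hmcn2-bearing IMQ members, at 0.232 CPM for Col11a1 and with 0 UMIs for Ednrb, against 36.001 and 18.9 CPM in Hmcn2-bearing normal members. The contractile genes Acta2 and Tagln, which mark smooth muscle and dermal sheath, turned round with this choice. Acta2 was 7.05-fold lower (6.10 to 8.16) in IMQ members but 1.71-fold higher (1.10 to 2.77) among those with a Hmcn2 UMI, and Tagln 8.05-fold lower (6.78 to 9.58) but 3.93-fold higher (1.77 to 10.8). In thinned cells Acta2 had a log2 ratio of -0.06. Single cells held 50.9% of the Acta2 UMIs and 51.6% of the Tagln UMIs in the IMQ library, and 8 pericyte and smooth muscle genes summed to 165 CPM in IMQ members and 818 CPM in normal members (169 and 90.9 CPM in IMQ and normal members with a Hmcn2 UMI). Sparc and Dkk2 turned round as well, at log2 ratios of -1.21 and -1.98 in all members against 0.09 and 1.58 in Hmcn2-bearing ones, where Dkk2 rests on 3 normal UMIs and was 2.98-fold higher (0.976 to 14.8). Among Hmcn2-bearing members C3 was 5.50-fold higher (5.003 to 6.06), Cp 6.59-fold higher (5.34 to 8.22), Serpina3n 29.3-fold higher (20.9 to 42.6) and Prg4 41.03-fold higher (24.8 to 73.4), so these genes were high in IMQ members under both choices.

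**Figure D4:**
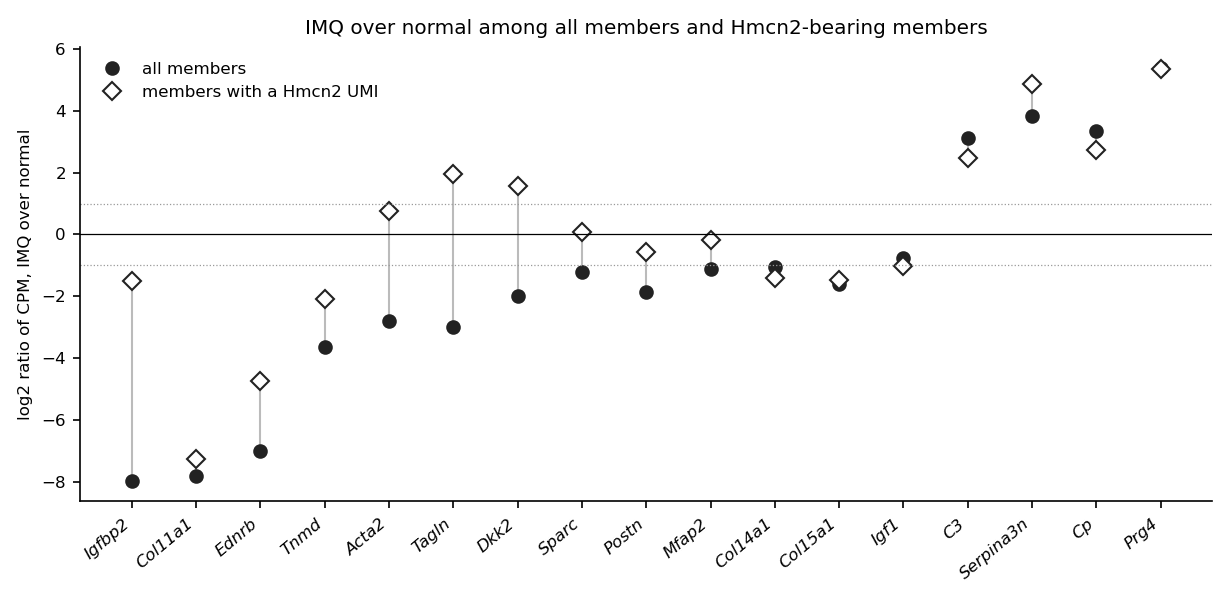
Log2 ratio of CPM, IMQ over normal, for genes among all members (filled circles) and members with a Hmcn2 UMI (open diamonds), with dotted lines at 2-fold; the Ednrb diamond stands for 0 UMIs in IMQ members and is drawn at 3 counts. Igfbp2, Acta2, Tagln, Dkk2 and Sparc shift toward or past 0 while C3, Serpina3n, Cp and Prg4 keep log2 ratios above 2.

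Transcripts that are typical of other cells were also higher in IMQ members. The calprotectin genes S100a8 and S100a9 stood at 638 and 565 CPM in IMQ members against 2.78 and 0 CPM in normal members. The stress keratin gene Krt6a, with a near-identical copy in Krt6b, stood at 169 CPM in IMQ members and had 0 UMIs in normal members. The 9 listed immune genes, S100a8 and S100a9 among them, summed to 1228 CPM in IMQ members and 64.9 CPM in normal members, with 2 of the 9 genes at 10 CPM or more in IMQ members and 1 in normal members, and 2 without a UMI in normal members. In members with fewer than 2 UMIs of the endothelial, glial and keratinocyte genes named above, 239 in the IMQ library and 159 in the normal library, S100a8 stood at 63.2 CPM in IMQ and 0 CPM in normal cells and Krt6a at 13.9 and 0 CPM. In the same IMQ and normal cells Saa3 stood at 10714 and 0 CPM, Lcn2 at 1928 and 0 CPM and C3 at 4556 and 578 CPM, close to the values in all members. This choice leaves out no cell on account of RNA from other gated cells. The lipid carrier gene Fabp5 stood at 1252 CPM in IMQ members against 90.8 CPM in normal members, and at 85.9 CPM in the 239 IMQ cells and 57.9 CPM in the 159 normal cells. The part of RNA from other cells in the S100a8, S100a9, Krt6a, Fabp5, Saa3, Lcn2 and C3 values was not tested.

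The second comparison, IMQ+celastrol against IMQ, asks how the same cells differ when celastrol is added to imiquimod. Of 6326 measured genes, 115 (1.82%) were higher in IMQ+celastrol members and 91 (1.44%) lower. The median log2 ratio of all genes was 0.13, and with this median set to 0 the counts were 80 higher and 133 lower. Among Hmcn2-bearing members 142 of 6270 (2.26%) were higher and 104 (1.66%) lower. Without cells holding other-type RNA, 521 were higher and 449 lower here, against 315 higher and 316 lower in IMQ over normal. In total 5111100 UMIs came from IMQ+celastrol members, 5291803 from IMQ members and 1079210 from normal members, so the counts of the comparisons rest on unequal depth. This comparison and the one above share the IMQ library, and a gene high in that library enters both.

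All 7 measured acute-phase genes were lower in IMQ+celastrol members than in IMQ members, with a median log2 ratio of -3.06 (-2.74 among Hmcn2-bearing members). Saa3 stood at 777 (753 to 801) CPM in IMQ+celastrol members and 11735 (11643 to 11828) CPM in IMQ members and was 15.1-fold lower (14.6 to 15.6). A Saa3 UMI was found in 25.8% of IMQ+celastrol members and 77.1% of IMQ members, or 16.7% of IMQ+celastrol and 69.9% of IMQ members after thinning, and the median member held 0 Saa3 UMIs per 10000 in the IMQ+celastrol library and 24.6 in the IMQ library. Lcn2 stood at 228 CPM in IMQ+celastrol members against 1896 CPM in IMQ members and was 8.33-fold lower (7.84 to 8.86). Serpina3n was 2.55-fold lower (2.45 to 2.65), Cp 3.40-fold lower (3.21 to 3.61) and Lbp 3.50-fold lower (3.27 to 3.75). Set against normal members, Serpina3n was 5.60-fold higher (4.72 to 6.70) in IMQ+celastrol members and Cp 2.98-fold higher (2.43 to 3.68), while Lbp stood at 203 CPM in IMQ+celastrol members and 188 CPM in normal members. In the 35 IMQ+celastrol members with fewer than 2 UMIs of the other-type genes, Saa3 stood at 14.4 CPM and Lcn2 at 19.3 CPM. The 239 such IMQ members held 10714 and 1928 CPM. These ratios were larger there than in all members, but both IMQ+celastrol values rest on a few UMIs only, so their size is uncertain. A cut at 2 UMIs also keeps shallow cells more readily. Saa3 was lower in the other gated cells as well, at 1849 CPM in the IMQ+celastrol library against 19611 CPM in the IMQ library. In keratin-rich cells it stood at 8.16 CPM in the IMQ+celastrol library and 189 CPM in the IMQ library. The part of RNA from other cells in these values was not tested.

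Of the other inflammatory genes, most did not pass 2-fold. Of 12 complement genes 1 was lower and none higher (median log2 ratio -0.45), or 2 lower and none higher among Hmcn2-bearing members. Cfb stood at 35.2 CPM in IMQ+celastrol members against 95.1 CPM in IMQ members and was 2.70-fold lower (2.27 to 3.22), while C3, at 2744 CPM in IMQ+celastrol members against 4257 CPM in IMQ members, was 1.55-fold lower (1.52 to 1.58). Of 15 chemokine genes 3 were lower, Cxcl13, Ccl2 and Ccl21a, and 1, Ccl27a, was higher. Ccl2 stood at 224 CPM in IMQ+celastrol members against 458 CPM in IMQ members and was 2.04-fold lower (1.90 to 2.19), and with called doublets left out its log2 ratio was -0.74. Cxcl13 was 9.60-fold lower (8.76 to 10.5). Ccl27a and Ccl21a changed side with the choice of cells, with log2 ratios of 1.14 in all members and -0.53 without other-type RNA for Ccl27a and of -4.89 in all members and 2.01 in thinned cells for Ccl21a. Cxcl12 stood at 495 CPM in IMQ+celastrol members against 822 CPM in IMQ members, below 2-fold. None of 13 cytokine and receptor genes passed 2-fold (median log2 ratio -0.17), of 15 NF-kB targets and regulators 1 was higher and 2 were lower, and Il33 stood at 94.1 CPM in IMQ+celastrol members against 92.4 CPM in IMQ members. Prg4 was 2.19-fold lower (2.09 to 2.29), Spp1 3.33-fold lower (2.91 to 3.82) and Tnc 2.11-fold lower (1.99 to 2.25), although Prg4 was under 2-fold among Hmcn2-bearing members (log2 ratio -0.89) and Spp1 in members without other-type RNA (-0.39). Mgp stood at 1424 CPM in IMQ+celastrol members against 3341 CPM in IMQ members and was 2.35-fold lower (2.28 to 2.41).

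Ptgs2, for the inducible prostaglandin synthase COX-2, ran the other way. It stood at 83.7 CPM in IMQ+celastrol members against 36.7 CPM in IMQ members and was 2.28-fold higher (1.92 to 2.72), while normal members held 38.9 CPM. Without the members that held Col11a1, Igfbp2 or Ednrb its log2 ratio was 0.93. In the other gated cells it stood at 44.4 CPM in the IMQ+celastrol library and 119 CPM in the IMQ library, a log2 ratio of -1.42 against 1.19 in members. The difference of these ratios was not tested, and 1 cell held 8.88% of the IMQ+celastrol UMIs and 12.9% of the IMQ UMIs.

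Several matrix and signalling genes that were lower in IMQ members than in normal members were higher in IMQ+celastrol members than in IMQ members. Col14a1 stood at 701 CPM in IMQ+celastrol members, 306 CPM in IMQ members and 635 CPM in normal members, and was 2.29-fold higher (2.16 to 2.43) in IMQ+celastrol than in IMQ members. Col15a1 was 2.51-fold higher (2.28 to 2.76) and Col6a6 2.09-fold higher (1.69 to 2.59), and these were the 3 of 15 collagen genes past 2-fold, with none lower (median log2 ratio 0.56). Fbln5 and Fbn2, of elastic fibres and microfibrils, were 2.20-fold higher (1.86 to 2.61) and 2.76-fold higher (2.22 to 3.45). Serpinh1, for the collagen chaperone HSP47, stood at 1787 CPM in IMQ+celastrol members, 919.9 CPM in IMQ members and 1780 CPM in normal members and was 1.94-fold higher (1.88 to 2.01) in IMQ+celastrol than in IMQ members. Fn1 stood at 523 CPM in IMQ+celastrol members, 204 CPM in IMQ members and 877 CPM in normal members and was 2.56-fold higher (2.38 to 2.75) in IMQ+celastrol than in IMQ members. Sfrp2 was 2.61-fold higher (2.24 to 3.06) and Wnt5a 2.13-fold higher (1.67 to 2.74). Fgf18, for a fibroblast growth factor, stood at 27.6 CPM in IMQ+celastrol members, 6.24 CPM in IMQ members and 27.8 CPM in normal members and was 4.42-fold higher (3.01 to 6.67) in IMQ+celastrol than in IMQ members. Tppp3 (chr8:105467492-105471422), a marker of tendon sheath progenitors in mouse, stood at 382 CPM in IMQ+celastrol members, 76.9 CPM in IMQ members and 271 CPM in normal members and was 4.96-fold higher (4.46 to 5.53) in IMQ+celastrol than in IMQ members. In the 35 IMQ+celastrol and 239 IMQ members without other-type RNA, Col14a1, Fbln5, Fn1 and Sfrp2 were below 2-fold, with log2 ratios of 0.86, 0.87, 0.62 and 0.57, and the direction was kept. The part of RNA from other cells in these ratios was not tested.

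**Figure D5:**
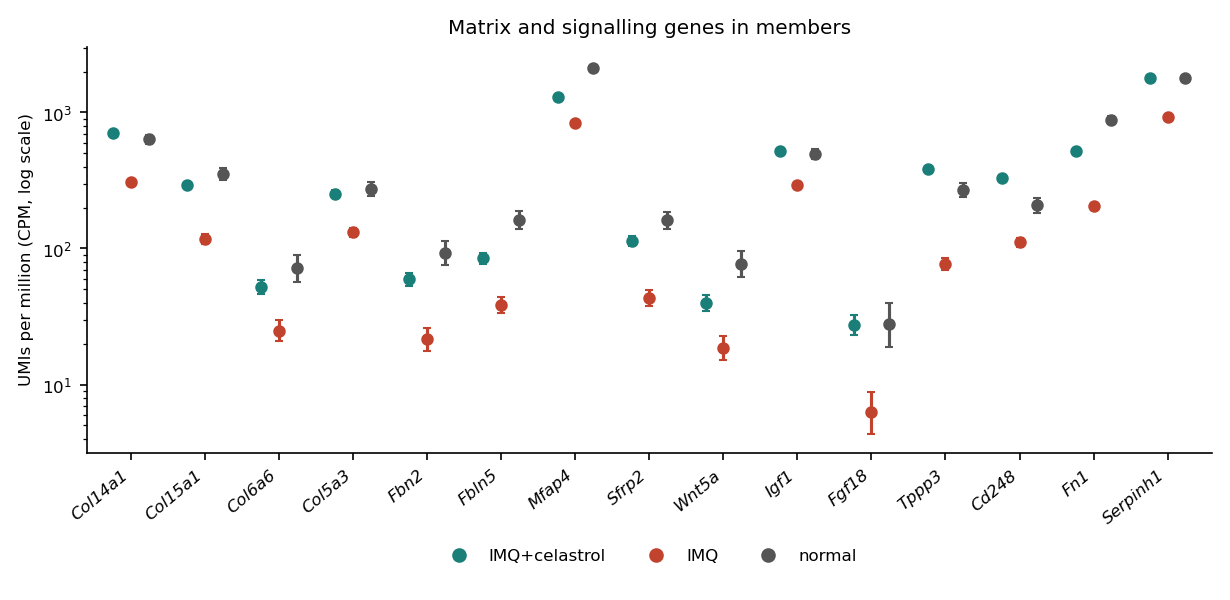
Levels of matrix and signalling genes in members, in CPM on a log scale, by library, with 95% Poisson intervals. Each of these genes is lowest in IMQ members, and Tppp3, Fgf18 and Fbn2 stand out with IMQ+celastrol levels of 382, 27.6 and 59.5 CPM against 76.9, 6.24 and 21.5 CPM in IMQ members.

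Genes of varied roles were also past 2-fold in this comparison. The stromal surface gene Cd248, for endosialin, stood at 331 CPM in IMQ+celastrol members against 111 CPM in IMQ members and was 2.98-fold higher (2.71 to 3.28). Lrrc17 was 4.17-fold higher (3.47 to 5.04) and Maged2 2.75-fold higher (2.42 to 3.14). The interferon-response gene Ifi27l2a stood at 1401 CPM in IMQ+celastrol members, 556 CPM in IMQ members and 959 CPM in normal members and was 2.52-fold higher (2.41 to 2.63) in IMQ+celastrol than in IMQ members. On the lower side, Ctla2a, for a cathepsin inhibitor, stood at 27.4 CPM in IMQ+celastrol members, 259.8 CPM in IMQ members and 15.8 CPM in normal members and was 9.49-fold lower (7.97 to 11.4) in IMQ+celastrol than in IMQ members. Most members held no Ctla2a, with an upper quartile of 0 UMIs per 10000 in each library and up to 167 in an IMQ cell. The part of RNA from other cells in the Ctla2a values was not tested. The glycosyltransferase gene Galnt15 was 5.11-fold lower (4.55 to 5.76), the aldo-keto reductase gene Akr1c14 3.92-fold lower (3.52 to 4.36) and the interferon-induced gene Ifitm1 3.76-fold lower (3.37 to 4.19). Ctgf, also known as Ccn2, a matricellular gene tied to fibrosis, stood at 394 CPM in IMQ+celastrol members, 1210 CPM in IMQ members and 629 CPM in normal members and was 3.07-fold lower (2.92 to 3.23) in IMQ+celastrol than in IMQ members. Wisp2, of the same family, was 2.30-fold lower (2.12 to 2.501), Igfbp3 2.31-fold lower (2.23 to 2.39) and Gas6 2.04-fold lower (1.97 to 2.11), though Gas6 was just under 2-fold among Hmcn2-bearing members (log2 ratio -0.93) and Igfbp3 in members without other-type RNA (-0.39). Acta2, Tagln and Myl9 were 5.27-fold higher (4.68 to 5.96), 4.84-fold higher (4.17 to 5.63) and 5.81-fold higher (4.91 to 6.91), but 1 cell held 65.3%, 66.5% and 49.2% of their IMQ+celastrol UMIs, the log2 ratio of Tagln was -0.04 in thinned cells, and the smooth muscle list summed to 638 CPM in IMQ+celastrol and 165 CPM in IMQ members.

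Lrp1, which encodes the endocytic receptor named in the study's title, stood at 987 (960.02 to 1015) CPM in IMQ+celastrol members, 1473 (1440.5 to 1506) CPM in IMQ members and 748 (697 to 801) CPM in normal members. It was 1.97-fold higher (1.83 to 2.12) in IMQ than in normal members and 1.49-fold lower (1.44 to 1.55) in IMQ+celastrol than in IMQ members, both under 2-fold. In the other gated cells it stood at 1009.7, 1376 and 527 CPM in the IMQ+celastrol, IMQ and normal libraries. Among the measured genes of LRP1 and its ligands, Serpine2, for an extracellular serine protease inhibitor, was 3.62-fold higher (2.36 to 5.85) in IMQ than in normal members. Between IMQ+celastrol and IMQ members, Apoe, for the lipid carrier apolipoprotein E, was 2.40-fold higher (2.27 to 2.53) and stood at 832 CPM in IMQ+celastrol members, 347 CPM in IMQ members and 569 CPM in normal members. Plau, for urokinase, was 2.01-fold lower (1.60 to 2.52), and under 2-fold among Hmcn2-bearing members (log2 ratio -0.93) and without other-type RNA (-0.20).

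Genes of the stress lists passed 2-fold between the imiquimod-treated libraries about as rarely as all measured genes, of which 1.82% were higher and 1.44% lower. None of 16 heat shock, 18 immediate early and 2 metallothionein genes passed 2-fold in IMQ+celastrol against IMQ members, and of 20 NRF2 and antioxidant genes Gsta4 was higher and Sod2 lower. Among Hmcn2-bearing members 1 of 16 heat shock genes was higher and none lower, and of 19 NRF2 and antioxidant genes 1 was higher and none lower. Without its top cell Gsta4 had a log2 ratio of 0.22, and Sod2 was 2.15-fold lower (1.95 to 2.37), or -0.98 on the log2 scale among Hmcn2-bearing members. Against normal members, the inducible HSP70 genes Hspa1a and Hspa1b, which are near-identical copies, were the 2 of 16 heat shock genes higher in IMQ members, and were 2.998-fold higher (2.65 to 3.41) and 2.47-fold higher (2.20 to 2.77). The antioxidant genes Gpx3 and Sod3, for secreted enzymes, were 3.12-fold higher (2.998 to 3.25) and 3.0003-fold higher (2.65 to 3.41), and Gpx3 was under 2-fold among Hmcn2-bearing members (log2 ratio 0.89). Of 15 glycolysis and hypoxia genes 2 were higher in IMQ members, Pkm, which was 2.41-fold higher (2.06 to 2.85), and Pgk1, which was 2.26-fold higher (1.78 to 2.90), and the median log2 ratio was 0.69. Among Hmcn2-bearing members 5 of the 15 were higher.

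Against normal members, 292 of 6541 measured genes (4.46%) were at least 2-fold higher in IMQ+celastrol members and 176 (2.69%) at least 2-fold lower. C3 stood at 2744 CPM in IMQ+celastrol members and 491 CPM in normal members and was 5.59-fold higher (5.12 to 6.11). Prg4 was 19.3-fold higher (13.3 to 29.1), Il33 7.81-fold higher (4.53 to 14.8) and Id3 2.87-fold lower (2.67 to 3.08). These 4 genes had the same direction against normal members in both imiquimod-treated libraries. Col14a1 and Wnt5a were 1.10-fold higher (1.02 to 1.20) and 1.93-fold lower (1.47 to 2.499) in IMQ+celastrol than in normal members, both under 2-fold. The 3 comparisons share libraries and are set side by side only.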

How the data were processed

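Transcripts of single cells were counted at the 3' end in 3 libraries, 1 per group. Per the submitters' processing notes and the file headers, the authors used Cell Ranger 4.0.0 with mm10 (GRCm38), and the deposited matrices hold raw UMI counts for 31053 genes. The libraries held 6777 (IMQ+celastrol), 8236 (IMQ) and 10565 (normal) barcodes with 103267738, 119831835 and 77880943 UMIs, of which 6422, 8008 and 10428 cells passed the filters, and between 15 and 26 barcodes were shared by a pair of libraries. The members and the gene lists were chosen with earlier results of these data known.

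For each group of cells and library, UMIs were added up and divided by their total, with exact Poisson intervals. Ratios carry exact conditional binomial intervals and shares Clopper-Pearson intervals, all at 95%. A count of 0 was read as up to 3 counts per library. Genes with at least 30 UMIs over both libraries and 20 CPM in one were measured, and 2-fold was the call. Genes were named as rule genes and markers, as the 10 highest and 10 lowest genes per comparison at 100 CPM or more, as up to 4 list members past 2-fold by level, and as the 15 genes highest in members over other gated cells with 50 CPM in each library. Comp, Chad, Tnxb, Coch, Cd55, Pi16 and Lrp1 are outside these groups and were chosen after their values were seen. CCN family genes carry the older symbols of the files. The lists' genes Pla2g2a and C5 had no entry under those symbols.

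Doublets were kept, and left out in an alternative with Scrublet (scanpy 1.11.5), which marked 89 IMQ+celastrol, 1 IMQ and 206 normal cells. Where it marked under 0.5% of cells, as in the IMQ library, the cells with the highest scores were left out instead, at a doublet rate set in proportion to the number of cells, which gave 513 IMQ cells. The alternatives were thinning to 3000 UMIs, doublets left out, 5 rule-gene UMIs, 10% mitochondrial UMIs, cells with other-type RNA left out, ratios centred on their median, means over cells, 10 CPM added and no filter on low counts. A further 3 were chosen after seeing the data: Hmcn2-bearing members, members without Col11a1, Igfbp2 and Ednrb, and each gene without its top cell. Shares and ratios in thinned cells come from cells that met the gate and the rule anew after thinning. The percentages of members with a Saa3 UMI after thinning come from the original members with at least 3000 UMIs. The ratio code was run on simulated independent Poisson counts. That check does not cover the clumping of UMIs in single cells seen for some genes here. Computation used Python 3.11.15, numpy 2.4.6, scipy 1.17.1, pandas 2.3.3 and matplotlib 3.10.9. Promoters and positions come from RefSeq on GRCm38.p6, with a position for 146 of the 150 genes named by these rules. Some of the genes used or measured are not reported here.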

Additional observations from a re-analysis of the deposited data

How the results depend on the processing

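Each group is 1 library, so leaving out a replicate was not possible, and no paired analysis was possible because no group has replicates. The share of members in IMQ over normal was 2.26 and lay between 1.92 and 2.84 under the planned choices, the highest with all filtered cells as the denominator, and at 3.08 for members with a Hmcn2 UMI. In IMQ+celastrol over IMQ it was 1.37 and lay between 1.28 and 1.42, apart from 1.19 for members with a Hmcn2 UMI and 0.901, below 1, without cells holding other-type RNA. Of genes called in IMQ over normal, 288 were higher and 330 lower, and these counts were 180 and 197 with 10 CPM added and 1044 and 1183 without a filter. In IMQ+celastrol over IMQ, 115 were higher and 91 lower. These were 276 and 171 in thinned cells, 521 and 449 without other-type cells, 59 and 60 with 10 CPM added and 1149 and 650 without a filter. Thinning turned the split of IMQ over normal to 384 higher and 240 lower. Among members with a Hmcn2 UMI the log2 ratios of IMQ over normal turned round for Acta2 (0.77), Birc5 (0.14), Dkk2 (1.58), Sparc (0.0876), Tagln (1.97) and Tpm2 (0.35), and that of IMQ+celastrol over IMQ for Igfbp5 (-0.20). Without the members holding Col11a1, Igfbp2 or Ednrb they were 3.13 for Acta2, 1.67 for Tagln and 0.13 for Tpm2. Ccl21a turned round in thinned cells (-4.00 in IMQ over normal, 2.01 in IMQ+celastrol over IMQ) and without other-type cells (-3.76 in IMQ over normal), Ccl27a without other-type cells (-0.53) and Tagln in thinned cells (-0.038), both in IMQ+celastrol over IMQ. The cause was not tested. Of 183 ratios of named genes past 2-fold, 176 stayed past it with doublets left out, 180 without the top cell and 147 among members with a Hmcn2 UMI. Of 179 that could be computed, 152 did in thinned cells and 156 without other-type cells. The 194 normal members with 1079210 UMIs set the limit, and a gene without a UMI there may stand at up to 2.78 CPM.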

Other observations

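Of 11 retinoid and lipid genes 4 were at least 2-fold higher in IMQ members than in normal members and none lower, with a median log2 ratio of 0.45, while among Hmcn2-bearing members 2 were higher and 2 lower. Aldh1a1, which makes retinoic acid, stood at 57.1 CPM in IMQ+celastrol members, 110.4 CPM in IMQ members and 44.5 CPM in normal members. Its log2 ratio of IMQ to normal members was 1.31, and it was below 2-fold among Hmcn2-bearing members (0.97) and in thinned cells (0.93). Apod, for the lipid carrier apolipoprotein D, stood at 1776 CPM in IMQ+celastrol members, 1765 CPM in IMQ members and 653 CPM in normal members. The Apod ratio of IMQ to normal members was 2.70-fold higher (2.503 to 2.92) in all members and 1.46-fold higher (1.33 to 1.60) among those with a Hmcn2 UMI. Of 5 measured prostaglandin synthesis genes 1, Hpgd, was lower in IMQ than in normal members and none higher (median log2 ratio -0.09). Hpgd, for the enzyme that breaks down prostaglandins, stood at 22.3 CPM in IMQ+celastrol members, 23.1 CPM in IMQ members and 114 CPM in normal members and was 4.94-fold lower (3.82 to 6.40) in IMQ members. Its low level was thus shared by both imiquimod-treated libraries. Angptl4, for a lipase inhibitor, stood at 47.3 CPM in IMQ+celastrol members, 156 CPM in IMQ members and 115 CPM in normal members and was 3.30-fold lower (2.86 to 3.83) in IMQ+celastrol than in IMQ members. The metal-binding metallothionein gene Mt2 stood at 1606 CPM in IMQ+celastrol members, 2849.9 CPM in IMQ members and 939.6 CPM in normal members.

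Of 9 measured cell cycle genes of 20 listed, 3 were lower and none higher in IMQ than in normal members (median log2 ratio -0.86), or 1 of 6 lower among Hmcn2-bearing members. In IMQ+celastrol against normal members 5 of 10 were lower and 1 was higher. Stmn1, for the microtubule regulator stathmin, stood at 44.6 CPM in IMQ+celastrol members, 26.3 CPM in IMQ members and 128 CPM in normal members, or at 36.02, 17.6 and 89.8 CPM in the IMQ+celastrol, IMQ and normal members without its top cell in each library. Top2a, for a topoisomerase of cycling cells, held 72 UMIs in IMQ+celastrol members, 24 in IMQ members and 39 in normal members, and 1 cell held 62.5% of those in the IMQ library and 61.5% in the normal library. Bmper, for a secreted regulator of BMP, stood at 54.8 CPM in IMQ+celastrol members, 24.9 CPM in IMQ members and 44.5 CPM in normal members, against 13.8, 11.1 and 4.96 CPM in the other gated cells of the IMQ+celastrol, IMQ and normal libraries. It was thus higher in members in all 3 libraries and lowest in the IMQ one. P4ha3, for a subunit of collagen prolyl hydroxylase, stood at 22.5 CPM in IMQ+celastrol members, 23.2 CPM in IMQ members and 10.2 CPM in normal members.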
